A study of Xenopus laevis with 12 samples.

Results

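The set described here holds 51 gene IDs whose RNA was higher at 25 nM retinoic acid (RA) than in vehicle and little above vehicle at 200 nM. They were chosen by that pattern from 44478 gene IDs measured in cultured foregut endoderm of the frog Xenopus laevis. Levels are in CPM, the count of an ID as a share of all counts of its library, scaled to a fixed total, and group means are over 3 libraries. A member had a mean of at least 2 CPM at 25 nM, a log2 ratio to DMSO of at least 1 at 25 nM, and a log2 ratio under 0.6 at 200 nM, with 0.5 CPM added to each mean. The 500 nM libraries took no part in the choice.

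All embryos were wild type, of the stock NXR_0031. Foregut endoderm was dissected at Nieuwkoop-Faber (NF) stage 15, and the explants were kept at 15 °C for about 16 hours until NF stage 25. There were 4 groups: 0.1% DMSO as the vehicle, and RA at 25, 200 or 500 nM. The DMSO content of the RA groups is not given in the labels. Each group had 3 libraries, and each library was a pool of 8 explants. The labels do not say if the 3 pools come from different clutches, so each p-value reflects only the variation from pool to pool. In such bulk tissue, fewer cells of a type and less RNA per cell cannot be told apart.

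RA is a derivative of vitamin A that enters the nucleus and binds RA receptors, which sit on DNA with retinoid X receptors and switch their target genes. Embryos make it with retinaldehyde dehydrogenases and break it down with Cyp26 enzymes, and both groups of enzymes are themselves under RA control in many tissues. In the foregut, RA helps to set positions along the gut and is needed for organs such as lung and pancreas. The gene IDs of the deposited tables are not paired with gene names, and 0 of them matched the RefSeq gene table of Xenopus laevis. The members are therefore described by their rank in mean CPM at 25 nM, from rank 1, the highest, to rank 51. Of the members with a mean of at least 5 CPM at 25 nM, the 2 with the highest and the 2 with the lowest change at 500 nM against DMSO are also given by ID. No function is assigned to any of them, and no tissue marker could be checked.

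Total counts were 17782601 to 39147729 per library. All 51 members were among the 24454 IDs that passed the filter on low counts. The lowest count of a member in a library was 5, at 500 nM, and the highest was 10790. Library 1 at 200 nM had the lowest TMM scaling factor, 0.891, against 0.963 to 1.06 in the other 11, so its CPM values are low as a whole. Over all IDs, library 1 at 200 nM stood apart from the other 2. Its chi-square over the degrees of freedom was 88.3 against each, beside 3.16 between libraries 2 and 3. At 500 nM library 2 stood apart, at 28.6 and 26.3 against libraries 1 and 3, beside 2.90 between those. Pairs at 25 nM ran from 13.5 to 50.7, and DMSO pairs from 2.93 to 5.81. Over the members, library 3 at 200 nM stood nearer to the 25 nM group than the other 2 of its group. The IDs that met the cutoffs and the calls against 200 nM are also given below without library 1 or library 3 at 200 nM. Ranges and spreads at 200 nM use all 3 libraries.

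The values that chose the members are given first, as a description. At 25 nM the members were raised 2.07-fold to 3.13-fold over the DMSO mean, with a median of 2.32-fold. At 200 nM their means were 92.8% to 189% of DMSO, with a median of 129%. Their log2 ratios at 200 nM ran from -0.08 to 0.60, and 4 members were below 0. The 3 values at 200 nM were all above the 3 DMSO values in 19 members, overlapped them in 32, and were all below them in 0. Over all IDs tested, 12.1% had 200 nM values wholly above those of DMSO and 23.3% wholly below. These shares and counts rest on CPM without TMM scaling, in which library 1 at 200 nM is low as a whole. That scaling favours overlap with DMSO in members raised at 200 nM. So "little at 200 nM" covers members at the vehicle level as well as members that lay wholly above it.

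Levels at 25 nM spanned a wide range. There were 6 members with a mean of at least 50 CPM at 25 nM, 19 from 10 to 50 CPM, 6 from 5 to 10 CPM, and 20 under 5 CPM. The median was 8.80 CPM, against 6.99 CPM over all IDs tested. Members had to reach 2 CPM at 25 nM and were chosen for a rise there, so their higher median follows in part from the choice. Just inside the cutoff on the 200 nM ratio were ranks 49, 4 and 38, with log2 ratios of 0.598, 0.598 and 0.580, and just outside it were IDs at 0.605, 0.609 and 0.618. Those 3 outside IDs had mean levels of 68.5, 12.3 and 36.5 CPM at 500 nM against 27.6, 6.49 and 12.9 CPM in DMSO. Just inside the cutoff on the 25 nM ratio were ranks 34, 23 and 28, at 1.00, 1.01 and 1.01, and the nearest IDs outside stood at 0.996, 0.989 and 0.977. Just inside the cutoff on level were ranks 51, 50 and 49, at 2.01, 2.07 and 2.11 CPM, and the nearest outside had 1.95, 1.90 and 1.88 CPM.

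At 500 nM some members were above vehicle and others below it. Of the 51, 26 were called higher than DMSO, 14 were called lower and 11 were not called, at an adjusted p under 0.05 in edgeR's quasi-likelihood test. Of all 24454 IDs tested, 22.3% were called higher and 22.6% lower in this comparison, beside 51.0% and 27.5% of the members. The share called lower was thus near that of all IDs. The log2 ratios of the 500 nM mean to DMSO ran from -0.99 to 1.77, and no member lay between -0.12 and 0.28. The median edgeR log2 fold change was 0.40 over the members and -0.01 over all IDs tested. The 3 values at 500 nM were all above the DMSO values in 25 members and all below them in 16, against 19.8% and 33.4% of the IDs tested, and they overlapped in 10. The share of members wholly below DMSO was no higher than that of all IDs. These counts use CPM without TMM scaling, while the edgeR calls use TMM. TMM factors were 1.03 to 1.06 in DMSO and 0.964 to 0.998 at 500 nM, so CPM at 500 nM is low as a whole against DMSO. Over all IDs tested the median log2 ratio at 500 nM was -0.09. The DMSO libraries were also used to choose the members. A cutoff on the rise at 25 nM favours low DMSO values, and a cutoff under 0.6 at 200 nM favours high ones.

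**Figure D1:**
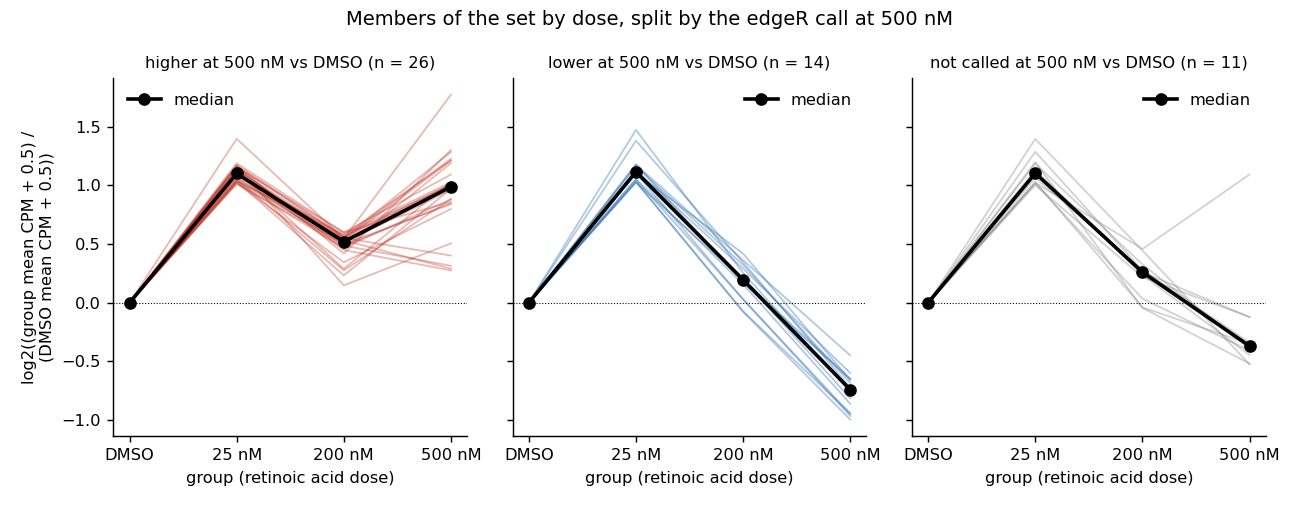
Log2 ratio of each group mean to the DMSO mean (y axis, 0.5 CPM added) in the 4 groups (x axis), 1 line per member, in panels by the edgeR call at 500 nM. Values at 25 and 200 nM follow from the choice of members. At 500 nM the black medians stand at 0.99 for the 26 members called higher, -0.74 for the 14 called lower and -0.37 for the 11 not called.

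The same cutoffs at 25 nM, without the condition at 200 nM, are met by 312 IDs, of which 261 are not members. Of those 261, 244 were called higher than DMSO at 500 nM, 0 were called lower and 17 were not called. Their median log2 fold change was 1.76. Several of the 261 have identical values, with 4.57 CPM at 25 nM and a log2 fold change of 0.45 at 500 nM. These are not separate measurements. All 312 share the DMSO and 25 nM libraries that chose them, and the members differ from the others by the condition at 200 nM, so these counts stand side by side without a test.

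**Figure D2:**
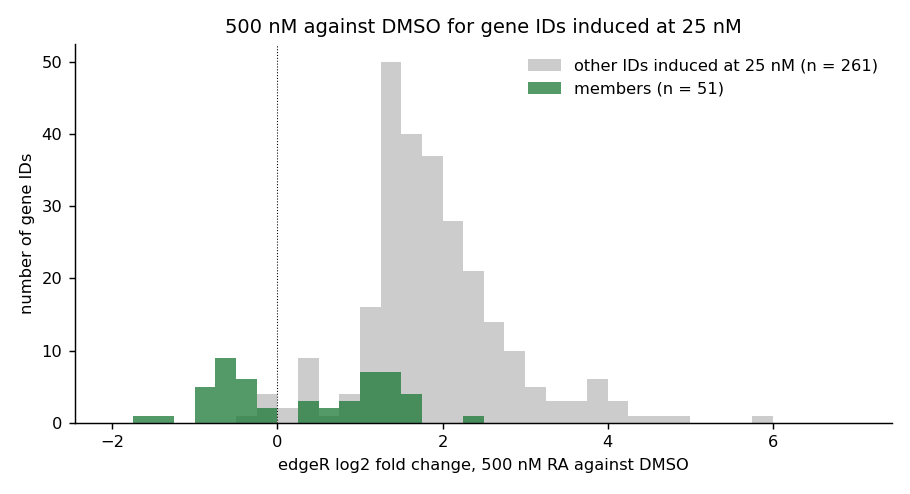
Number of gene IDs (y axis) by edgeR log2 fold change at 500 nM RA against DMSO (x axis), for the 51 members and the 261 other IDs raised at 25 nM by the same cutoffs. Members lie on both sides of 0, with medians of 0.40 for the members and 1.76 for the others.

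The 14 members called lower at 500 nM were all raised at 25 nM and under the 200 nM cutoff by the choice. By the split they lay under vehicle at 500 nM. Their 500 nM means were 31.7% to 72.7% of the DMSO mean, with a median of 54.8%. Their log2 ratios at 25 nM had a median of 1.11, and those at 200 nM a median of 0.20, both fixed in part by the choice. In all 14 the 500 nM values were also below all 200 nM values. That is a description, since the 14 were taken for low values at 500 nM; over all IDs tested the share was 17.5%. The lowest log2 fold changes against DMSO among members of at least 5 CPM belonged to XBXL10_1g7103, at rank 12, and XBXL10_1g15394, at rank 10. XBXL10_1g7103 measured 11.9, 9.17 and 9.91 CPM in the DMSO pools and 22.4, 20.9 and 21.6 CPM at 25 nM. It then stood at 6.99, 9.09 and 13.3 CPM at 200 nM and 5.72, 4.90 and 4.79 CPM at 500 nM. All 500 nM pools were under all DMSO pools, and its log2 fold change against DMSO was -0.89 (SE 0.153, adjusted p 4.72e-05). XBXL10_1g15394 measured 17.2, 15.8 and 15.8 CPM in the DMSO pools and 38.5, 36.6 and 31.6 CPM at 25 nM. The 200 nM pools had 14.2, 14.4 and 21.3 CPM and the 500 nM pools 9.78, 6.57 and 8.28 CPM. Here too the 500 nM values did not overlap those of any other group, with a log2 fold change against DMSO of -0.85 (SE 0.169, adjusted p 0.00155).

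The more abundant members of this kind were likewise highest at 25 nM and lowest at 500 nM. That order follows largely from the choice of members and the split by call. Rank 3, the highest of the 14, measured 65.6, 66.5 and 67.7 CPM in the DMSO pools and 147, 149.9 and 134 CPM at 25 nM. At 200 nM it had 71.0, 86.5 and 110.3 CPM, and at 500 nM 47.4, 37.2 and 41.5 CPM. Its 500 nM values lay below those of the other groups without overlap, and its log2 fold change at 500 nM against DMSO was -0.55 (SE 0.132, adjusted p 0.00813). Rank 5 measured 26.0, 22.6 and 24.9 CPM in the DMSO pools and 51.6, 52.6 and 49.9 CPM at 25 nM. It then stood at 22.6, 24.6 and 35.04 CPM at 200 nM and 15.0, 12.2 and 12.6 CPM at 500 nM. Its log2 fold change at 500 nM was -0.77 (SE 0.140, adjusted p 0.000966), and its 3 values at 500 nM were its lowest.

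Rank 7 measured 22.4, 20.4 and 20.2 CPM in the DMSO pools and 45.2, 51.2 and 47.7 CPM at 25 nM. The 200 nM pools had 21.7, 28.5 and 31.3 CPM and the 500 nM pools 17.9, 14.5 and 13.4 CPM. The change at 500 nM was smaller in this member, with a log2 fold change of -0.34 (SE 0.109, adjusted p 0.0182), and 1 pool at 500 nM stood closer to DMSO than the others. Rank 8 measured 14.9, 14.9 and 14.2 CPM in the DMSO pools and 41.8, 40.9 and 42.1 CPM at 25 nM. At 200 nM it had 12.4, 15.1 and 25.3 CPM, and at 500 nM 8.63, 7.68 and 9.10 CPM. Its log2 ratio at 25 nM, 1.47, was the highest of the 51 with 0.5 CPM added, though not by plain fold, and its log2 fold change at 500 nM was -0.69 (SE 0.227, adjusted p 0.0371). Its values at 500 nM were below those of every other group.

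The other 8 members called lower are given by group means (± SD, n = 3). The groups are separate pools, so the values are not a course over time. Rank 17 went from 6.47 ± 0.342 CPM in DMSO to 3.73 ± 0.790 CPM at 500 nM, having stood at 17.6 ± 0.533 CPM at 25 nM. Rank 18 went from 7.60 ± 0.670 CPM in DMSO to 4.55 ± 0.665 CPM at 500 nM, having stood at 17.6 ± 1.43 CPM at 25 nM. Rank 19 went from 7.59 ± 0.590 CPM in DMSO to 4.84 ± 0.644 CPM at 500 nM, having stood at 17.2 ± 1.45 CPM at 25 nM. These 3 were all at their lowest in the 500 nM group. Rank 20 went from 7.31 ± 0.534 CPM in DMSO to 3.94 ± 0.899 CPM at 500 nM, having stood at 16.5 ± 0.477 CPM at 25 nM. Rank 33 went from 1.86 ± 0.230 CPM in DMSO to 1.00 ± 0.234 CPM at 500 nM, having stood at 4.85 ± 0.591 CPM at 25 nM. Rank 35 went from 2.11 ± 0.674 CPM in DMSO to 1.17 ± 0.363 CPM at 500 nM, having stood at 4.81 ± 0.631 CPM at 25 nM. In these as well the 25 nM mean was the highest of the 4 groups and the 500 nM mean the lowest. As before, that order follows largely from the choice and the split by call. In rank 35 the single values at 500 nM and in DMSO overlapped. Rank 41 went from 1.58 ± 0.291 CPM in DMSO to 0.565 ± 0.158 CPM at 500 nM, having stood at 3.7996 ± 0.642 CPM at 25 nM. Rank 42 went from 1.35 ± 0.204 CPM in DMSO to 0.427 ± 0.130 CPM at 500 nM, having stood at 3.27 ± 0.238 CPM at 25 nM. These last 2, with low counts, had the largest relative falls of the 14, with log2 fold changes against DMSO of -1.35 (SE 0.304, adjusted p 0.000199) and -1.52 (SE 0.329, adjusted p 0.000116). They were also the only 2 of the 14 whose call came with at least a 2-fold change in edgeR.

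**Figure D3:**
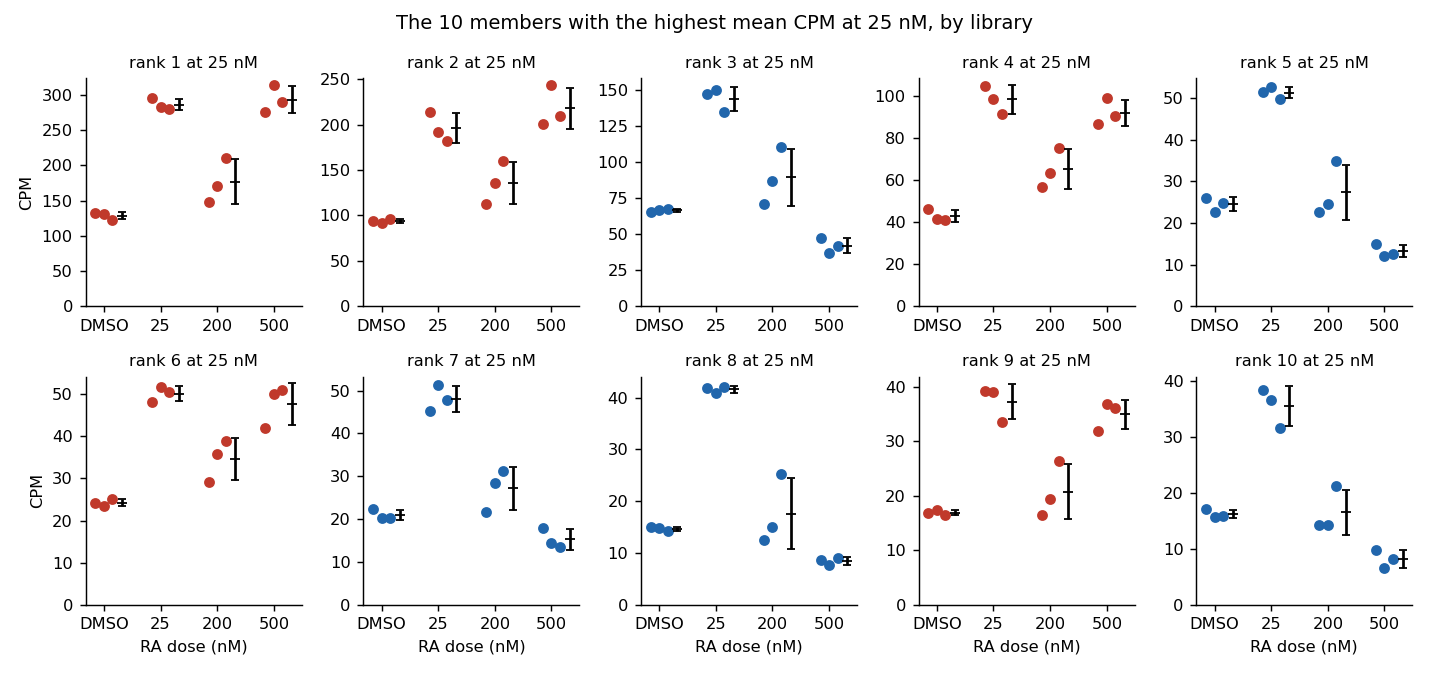
CPM (y axis, from 0) in each of the 12 libraries for the 10 members with the highest mean at 25 nM, by RA dose (x axis), with points for libraries 1, 2 and 3 from left to right and the mean ± SD beside them. Ranks 1, 2, 4, 6 and 9 (red) were called higher than DMSO at 500 nM, and ranks 3, 5, 7, 8 and 10 (blue) were called lower.

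The 26 members called higher at 500 nM were all raised at 25 nM and under the 200 nM cutoff by the choice. Their 500 nM means were 123% to 473% of DMSO, with a median of 211%, beside a median of 229% at 25 nM and 148% at 200 nM. That they lay above DMSO at 500 nM follows from the split by call. Of the 26, 17 were also called higher at 500 than at 200 nM, beside 14.0% of all IDs tested. The cutoff at 200 nM and the split by call both favour that direction. In ranks 13, 22, 25 and 27 the 500 nM mean was below the 200 nM mean. Among members of at least 5 CPM the highest log2 fold changes belonged to XBXL10_1g12893, at rank 16, and XBXL10_1g22674, at rank 21. XBXL10_1g12893 measured 8.92, 7.31 and 8.97 CPM in the DMSO pools and 17.0, 19.5 and 16.9 CPM at 25 nM. It then stood at 11.003, 11.3 and 15.3 CPM at 200 nM and 20.5, 22.4 and 20.6 CPM at 500 nM. Its 500 nM values were above those of every other group, and its log2 fold change was 1.42 (SE 0.0974, adjusted p 1.95e-18) against DMSO. XBXL10_1g22674 measured 6.11, 4.95 and 6.53 CPM in the DMSO pools and 17.5, 16.6 and 14.7 CPM at 25 nM. The 200 nM pools had 7.76, 8.03 and 10.6 CPM and the 500 nM pools 13.0, 15.6 and 14.5 CPM. In this ID the 500 nM and 25 nM values overlapped, both above 200 nM, and the log2 fold change at 500 nM against DMSO was 1.37 (SE 0.111, adjusted p 8.72e-16).

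Rank 1, the most counted member, measured 132, 131 and 123 CPM in the DMSO pools and 295, 283 and 280.1 CPM at 25 nM. At 200 nM it had 147, 171 and 211 CPM, and at 500 nM 276, 314 and 291 CPM. The values at 500 nM and 25 nM overlapped, all above those at 200 nM, with a log2 fold change against DMSO of 1.29 (SE 0.0824, adjusted p 1.28e-06). Rank 2 measured 93.4, 92.1 and 96.5 CPM in the DMSO pools and 214, 192 and 182 CPM at 25 nM. It then stood at 113, 136 and 159.5 CPM at 200 nM and 201, 243 and 209 CPM at 500 nM. Values at 25 and 500 nM overlapped here as well, and the log2 fold change at 500 nM was 1.3 (SE 0.0873, adjusted p 1.56e-06).

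Rank 4 measured 46.3, 41.4 and 41.1 CPM in the DMSO pools and 105, 98.8 and 91.5 CPM at 25 nM. The 200 nM pools had 57.0, 63.2 and 75.6 CPM and the 500 nM pools 86.8, 99.0 and 90.5 CPM. It had the highest level per length of all members, 147 TPM at 25 nM, and a log2 fold change at 500 nM of 1.19 (SE 0.0551, adjusted p 3.96e-21). Rank 6 measured 24.2, 23.4 and 25.1 CPM in the DMSO pools and 48.3, 51.6 and 50.6 CPM at 25 nM. At 200 nM it had 29.3, 35.9 and 38.9 CPM, and at 500 nM 42.0, 50.001 and 51.0 CPM. Its log2 fold change was 1.06 (SE 0.0665, adjusted p 1.23e-17), with overlapping values at 25 and 500 nM. Rank 9 measured 16.8, 17.4 and 16.6 CPM in the DMSO pools and 39.3, 39.1 and 33.5 CPM at 25 nM. It then stood at 16.5, 19.5 and 26.4 CPM at 200 nM and 31.9, 37.0 and 36.1 CPM at 500 nM. In rank 9 the first pool at 200 nM lay at the DMSO level in CPM without TMM scaling, while the third was higher. That first pool is the library with the lowest TMM factor. The log2 fold change of rank 9 at 500 nM was 1.14 (SE 0.0968, adjusted p 2.87e-09).

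Of the 26, 5 were called lower at 500 than at 25 nM (means ± SD, n = 3). Rank 11 measured 13.7 ± 1.251 CPM at 500 nM against 9.49 ± 1.23 CPM in DMSO and 21.8 ± 2.63 CPM at 25 nM. Rank 13 measured 11.8 ± 0.796 CPM at 500 nM against 8.84 ± 1.18 CPM in DMSO and 19.98 ± 1.00 CPM at 25 nM. Rank 22 measured 8.04 ± 0.631 CPM at 500 nM against 6.48 ± 0.747 CPM in DMSO and 14.7 ± 1.44 CPM at 25 nM. All 3 stood between the DMSO and 25 nM means. Rank 25 measured 5.50 ± 0.633 CPM at 500 nM against 4.46 ± 0.601 CPM in DMSO and 10.2 ± 0.462 CPM at 25 nM. Rank 27 measured 4.74 ± 0.0632 CPM at 500 nM against 3.71 ± 0.474 CPM in DMSO and 8.76 ± 1.46 CPM at 25 nM. The log2 fold changes of these 5 at 500 nM against DMSO were 0.39 to 0.61, the lowest of the 26. In rank 25 the values at 500 nM overlapped those of DMSO, and in the other 25 of the 26 they lay above them. The split by call favours that, and the share over all IDs tested was 19.8%.

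The other members called higher were nearer to their 25 nM level. Rank 14 measured 17.3 ± 1.76 CPM at 500 nM against 9.18 ± 1.26 CPM in DMSO and 19.6 ± 0.898 CPM at 25 nM. Rank 15 measured 15.3 ± 0.989 CPM at 500 nM against 8.56 ± 1.10 CPM in DMSO and 17.9 ± 1.74 CPM at 25 nM. Rank 23 measured 9.48 ± 1.295 CPM at 500 nM against 5.08 ± 0.654 CPM in DMSO and 10.7 ± 0.0869 CPM at 25 nM. Each of these lay nearer to its 25 nM mean than to its DMSO mean. Rank 24 measured 10.01 ± 1.65 CPM at 500 nM against 4.87 ± 0.273 CPM in DMSO and 10.5 ± 2.17 CPM at 25 nM. Rank 29 measured 5.92 ± 0.760 CPM at 500 nM against 2.70 ± 0.248 CPM in DMSO and 6.71 ± 1.27 CPM at 25 nM. Rank 36 measured 4.06 ± 0.787 CPM at 500 nM against 2.03 ± 0.228 CPM in DMSO and 4.80 ± 0.672 CPM at 25 nM. As in the ranks before them, the 500 nM mean lay under the 25 nM mean by less than the distance back to DMSO. Rank 37 measured 4.07 ± 0.699 CPM at 500 nM against 1.98 ± 0.172 CPM in DMSO and 4.52 ± 0.632 CPM at 25 nM. Rank 38 measured 3.92 ± 0.162 CPM at 500 nM against 1.67 ± 0.381 CPM in DMSO and 4.08 ± 0.588 CPM at 25 nM. Rank 40 measured 4.29 ± 0.0394 CPM at 500 nM against 1.44 ± 0.460 CPM in DMSO and 3.86 ± 0.653 CPM at 25 nM. Rank 40 had the narrowest spread of the 3 at 500 nM, and its mean was the only one of them above that at 25 nM.

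The least counted members of this kind were under 3 CPM at 25 nM. Rank 45 measured 3.10 ± 0.405 CPM at 500 nM against 1.05 ± 0.418 CPM in DMSO and 2.69 ± 0.299 CPM at 25 nM. Rank 46 measured 4.33 ± 0.644 CPM at 500 nM against 0.915 ± 0.598 CPM in DMSO and 2.53 ± 0.692 CPM at 25 nM. Rank 48 measured 1.91 ± 0.124 CPM at 500 nM against 0.694 ± 0.289 CPM in DMSO and 2.17 ± 0.375 CPM at 25 nM. Rank 46 had the largest change of all 51 at 500 nM, with a log2 fold change of 2.40 (SE 0.314, adjusted p 3.92e-07) against DMSO. Rank 49 measured 1.63 ± 0.266 CPM at 500 nM against 0.675 ± 0.126 CPM in DMSO and 2.11 ± 0.182 CPM at 25 nM. Rank 50 measured 1.92 ± 0.577 CPM at 500 nM against 0.707 ± 0.123 CPM in DMSO and 2.07 ± 0.391 CPM at 25 nM. In each of these low members the 3 values at 500 nM were above the 3 DMSO values. That follows largely from the split by call, and the share over all IDs tested was 19.8%.

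The 11 members not called at 500 nM were all under 10 CPM at 25 nM, and 10 of them had a 500 nM mean below DMSO (means ± SD, n = 3). Rank 26 measured 2.62 ± 0.423 CPM at 500 nM against 3.59 ± 0.4995 CPM in DMSO. Rank 28 measured 2.29 ± 0.482 CPM at 500 nM against 3.20 ± 0.185 CPM in DMSO. Rank 30 measured 1.11 ± 0.293 CPM at 500 nM against 1.82 ± 0.475 CPM in DMSO. For these the log2 fold changes were -0.32, -0.40 and -0.57, with edgeR adjusted p-values of 0.156, 0.088 and 0.0719. Rank 31 measured 1.73 ± 0.264 CPM at 500 nM against 2.38 ± 0.505 CPM in DMSO. Rank 32 measured 1.28 ± 0.173 CPM at 500 nM against 1.75 ± 0.477 CPM in DMSO. Rank 34 measured 1.94 ± 0.257 CPM at 500 nM against 2.15 ± 0.307 CPM in DMSO. In ranks 26, 28 and 31 the 500 nM values lay below all DMSO values in CPM without TMM scaling, without reaching the threshold. On that scale CPM at 500 nM is low as a whole, and 33.4% of all IDs tested lay wholly below DMSO. Rank 34 was the nearest to vehicle of all 51, with a log2 fold change of -0.05 (SE 0.222, adjusted p 0.892). Rank 39 measured 1.19 ± 0.486 CPM at 500 nM against 1.65 ± 0.443 CPM in DMSO. Rank 43 measured 0.630 ± 0.339 CPM at 500 nM against 1.12 ± 0.481 CPM in DMSO. Rank 44 measured 0.975 ± 0.333 CPM at 500 nM against 1.11 ± 0.163 CPM in DMSO. In these 3 the values at 500 nM and in DMSO overlapped. Rank 47 measured 0.502 ± 0.247 CPM at 500 nM against 0.864 ± 0.215 CPM in DMSO. Rank 51, the exception, measured 1.19, 0.450 and 0.571 CPM in the DMSO pools and 2.61, 2.83 and 0.604 CPM at 25 nM. The 200 nM pools had 0.836, 1.06 and 1.70 CPM and the 500 nM pools 1.12, 3.05 and 2.24 CPM. The third 25 nM pool with 16 counts lay at the DMSO level, the pools of its groups overlapped, and the log2 fold change at 500 nM was 1.56 (SE 0.639, adjusted p 0.0764).

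**Figure D4:**
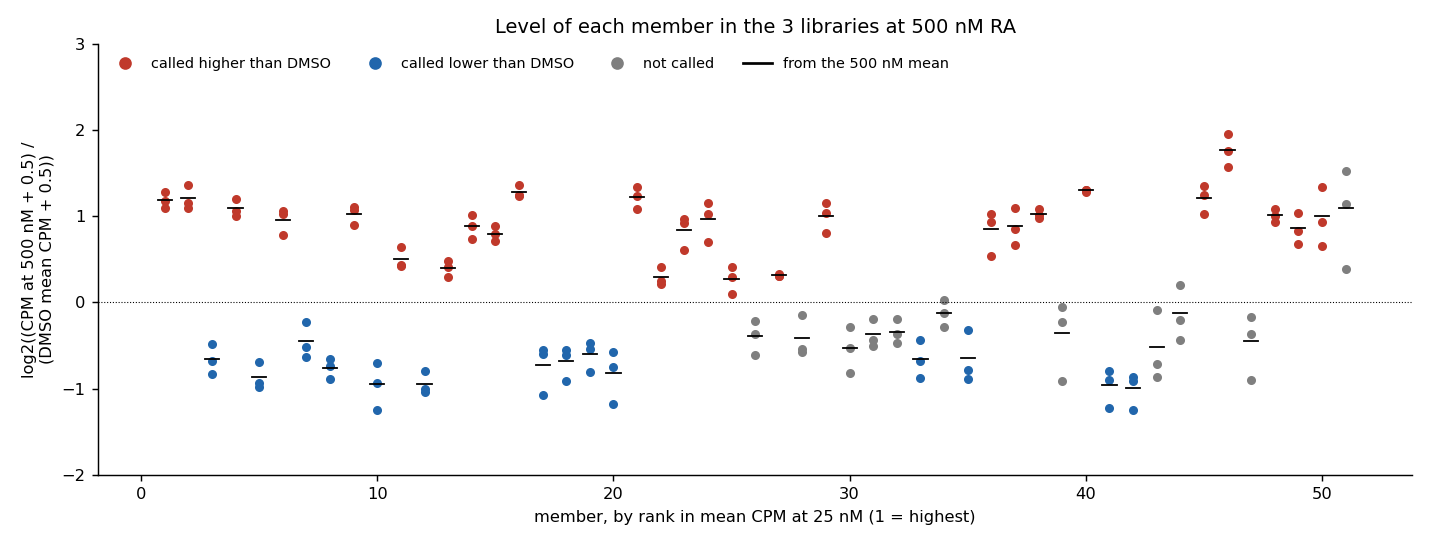
Log2 ratio of each of the 3 libraries at 500 nM to the DMSO mean (y axis, 0.5 CPM added) for each of the 51 members, ordered by mean CPM at 25 nM (x axis), with a bar for the ratio of the 500 nM mean. All 25 members of rank 1 to 25 were called, 15 higher (red) and 10 lower (blue), and the 11 not called (grey) are at rank 26 or beyond.

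Compared with 25 nM, 29 members were lower at 500 nM, 2 were higher and 20 were not called. Over all IDs tested 8.13% were called lower and 8.85% higher, and the choice of members by a high 25 nM level favours lower values at 500 nM. The median log2 fold change was -0.85 over the members, 0.00 over all IDs tested and 0.20 over the 261 other IDs raised at 25 nM. The 14 members called lower than DMSO at 500 nM were all among the 29, with log2 fold changes of -2.85 to -1.59 against 25 nM. That follows from the choice at 25 nM and the split by call at 500 nM. The 2 higher members were rank 16, at 0.29 (SE 0.0860, adjusted p 0.0139), and rank 46, at 0.81 (SE 0.261, adjusted p 0.0312). DESeq2 and limma on log2(TPM + 1) each called 0 members higher than 25 nM, and edgeR called 0 without library 1 or 3 at 25 nM or library 2 at 500 nM.

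Compared with 200 nM, 17 members were higher at 500 nM, 20 were lower and 14 were not called. Over all IDs tested 14.0% were called higher and 15.1% lower. The choice of members by a low 200 nM level favours higher values at 500 nM. Without library 1 at 200 nM in the fit, 14 members were called higher and 18 lower than 200 nM. Without library 3 at 200 nM, the counts were 17 and 18. The 14 members called lower than DMSO had log2 fold changes of -1.49 to -0.78 against 200 nM, with a median of -1.03. Of the 26 called higher than DMSO, the range against 200 nM was -0.24 to 1.5, with a median of 0.52. The split by call used the same 500 nM libraries, so the sides of these values follow in part from it. For XBXL10_1g7103 the log2 fold change from 200 to 500 nM was -0.88 (SE 0.150, adjusted p 9.69e-05), and for XBXL10_1g12893 it was 0.77 (SE 0.0894, adjusted p 8.79e-10). Both IDs were named for their change at 500 nM against DMSO, so these values are a description.

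The libraries at 200 nM did not share a level in these members. On a scale from the DMSO mean (0%) to the 25 nM mean (100%) of each member, the median place was 5.63%, 19.9% and 44.4% in libraries 1, 2 and 3 at 200 nM. Library 3 was the highest of its group in 45 of the 51 members, while it was the highest in 45.3% of all IDs tested. With TMM-scaled CPM it was the highest in 43 members, against 34.0% of all IDs. Library 1 was the lowest in 38 members by CPM, against 72.6% of all IDs. With TMM-scaled CPM library 1 was the lowest in 28 members and library 2 in 22, against 31.2% and 32.7% of all IDs. The places above and the coefficients of variation below use CPM without TMM scaling. The median coefficient of variation over members was 22.6% at 200 nM, beside 13.0% in DMSO, 9.31% at 25 nM and 13.6% at 500 nM. It was not computed over all IDs, so this spread cannot be called particular to the members. Over all IDs the 200 nM group also held the largest difference between libraries, a chi-square over its degrees of freedom of 88.3. Without library 3 the cutoffs were met by 70 IDs, which include 50 of the 51 members. Among these 50 were 25 of the 26 called higher at 500 nM and all 14 called lower. Leaving out the highest library lowers the 200 nM mean. The 45 members in which library 3 was the highest could therefore not fail the 200 nM cutoff, and their retention is no test of the set.

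At 500 nM the 3 libraries are placed on the same scale for the called members, whose side of vehicle follows from the split by call. In the 14 members called lower, the median place was -27.2%, -38.9% and -33.5% in libraries 1, 2 and 3, and in the 26 called higher it was 65.0%, 96.6% and 84.5%. Of the 500 nM group, library 1 was the lowest in 21 of the 26 and library 2 the highest in 17, against 36.6% and 45.6% of all IDs tested. In the 14, library 2 was the lowest in 10 and library 1 the highest in 9, against 26.6% and 28.6% of all IDs. Without library 2 at 500 nM, 26 members were called higher and 12 lower than DMSO. Without library 3 at 200 nM in the fit, the counts were 26 and 14.

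**Figure D5:**
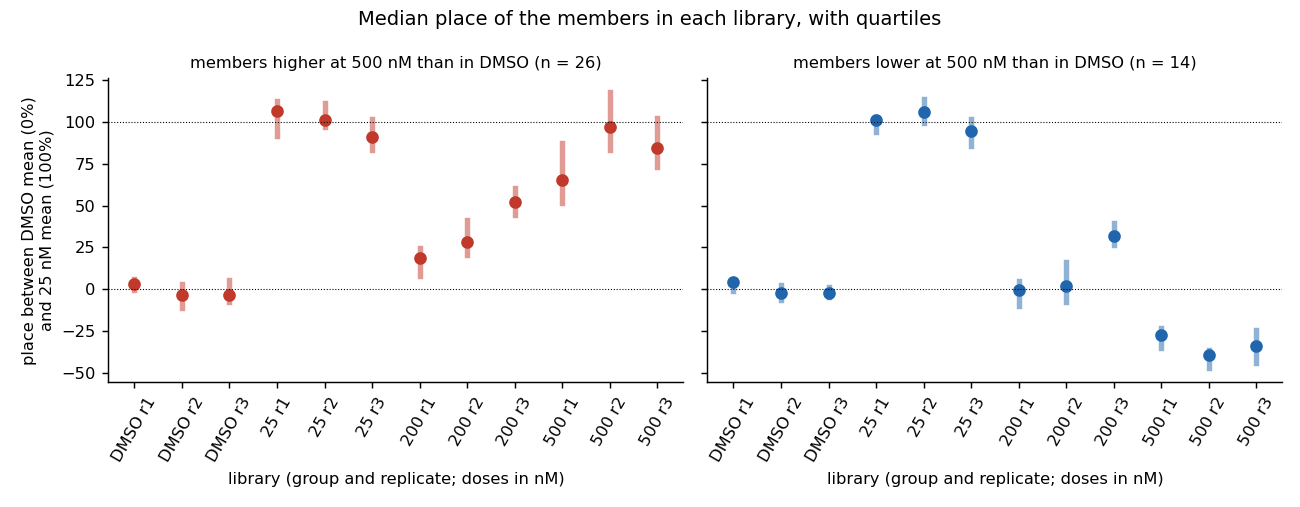
Place of each library between the DMSO mean (0%) and the 25 nM mean (100%) of each member (y axis), as the median (point) and quartiles (bar) over the 26 members called higher and the 14 called lower at 500 nM, for the 12 libraries (x axis). Library 3 at 200 nM stands at 52.2% and 31.96%, above libraries 1 and 2 of its group. The 500 nM places follow in part from the split.

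Which IDs met the 200 nM cutoff depended on the scaling of the libraries. With TMM-scaled CPM the cutoffs were met by 54 IDs, of which 38 were among the 51. These 38 hold all 14 members called lower at 500 nM, 14 of the 26 called higher and 10 of the 11 not called. Leaving out library 1 at 200 nM, which has the lowest factor, gave 44 IDs, with 36 of the 51. Those 36 again hold the 14 members called lower and 13 of the 26 called higher. The 14 members called lower than DMSO at 500 nM had log2 ratios of at most 0.42 at 200 nM. The 26 called higher had ratios of up to 0.60, with a median of 0.52. Both ratios are to the same DMSO libraries.

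Neither length nor level per length was itself a cutoff. The floor of 2 CPM at 25 nM favours longer IDs at a given level per length. The lengths of the members may thus follow in part from the choice. The ratio of an ID's deposited count to its TPM is proportional to its effective length, and was set to 1 at the median ID of each library. Its median was 1.35 over the 51 members and 1.03 over all IDs tested, with medians of 1.47 in the 26 members called higher and 0.62 in the 14 called lower, and wide ranges of 0.33 to 9.89 and 0.24 to 62.7. Rank 7 held that last value, since it had 48.0 CPM but 0.49 TPM at 25 nM. Per length, in TPM, the members spanned 0.45 to 147 TPM at 25 nM, with a median of 4.53 TPM against 4.27 TPM over all IDs tested. The choice used the same 25 nM libraries, so this comparison too is in part fixed by it. Rank 8 and rank 10, both called lower at 500 nM, followed rank 4 in level per length, at 110.3 and 93.2 TPM at 25 nM.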

How the data were processed

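RNA was measured by mRNA sequencing in 12 libraries, 3 for each of DMSO and 25, 200 and 500 nM RA. The deposited tables give expected counts, already rounded, and TPM, which is scaled to length and to a fixed total per library, for every gene ID. RSEM 1.3.0 and Bowtie2 are named in the submitters' processing notes, which are the only source here for the upstream steps; genome build and annotation: not given in the sources used here. Reads shared by near-identical gene copies, such as L and S pairs, are divided by RSEM, so those counts are estimates. No member shared identical counts with another ID. The row without a gene, with a count of 0, was left out. Rounding changed 0 values.

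The members and lists were chosen with earlier results of these data known. The 4 planned gene lists and the marker lists need symbols and were not run, so the rule for named genes fell back on IDs: the highest 2 and lowest 2 log2 fold changes at 500 nM against DMSO among members with a mean of at least 5 CPM at 25 nM. Of the others the first 10 ranks are given in full and the rest by group means, so that all 51 have a 500 nM level. The test was edgeR 4.0.16 in R 4.3.3 (filterByExpr at a minimum count of 10, 24454 IDs kept; TMM; robust quasi-likelihood fit of 4 groups). Adjusted p-values are Benjamini-Hochberg values across the IDs tested. Standard errors are the absolute log2 fold change divided by the square root of the F statistic. Log2 fold changes use TMM scaling, while CPM and log2 ratios use library totals. Within groups, libraries varied beyond counting error (chi-square over its degrees of freedom, 2.90 to 88.3 per pair), and all 12 stand as separate replicates. Alternatives used DESeq2 1.42.0, limma 3.58.1, other filters and scalings, a replicate block and left-out libraries.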

Additional observations from a re-analysis of the deposited data

How the results depend on the processing

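Of 110 alternative counts, 97 were within 1.5 times the value reported. That compares the size of a count and not which IDs it holds. The cutoffs with a pseudocount of 1 CPM are among the 97, though only 26 of the 51 members remained. The 4 members named by ID stayed called in the same direction at 500 nM against DMSO in 40 of 40 alternatives. They were named for high or low changes in that same comparison, so this does not extend to the other members. Requiring a 2-fold change left 2 members lower than DMSO, 0 higher than 25 nM, and 2 higher and 12 lower than 200 nM at 500 nM. DESeq2 and limma on log2(TPM + 1) or log2(TPM + 0.1) called 0 members higher than 25 nM, and limma on log2(TPM + 0.1) called 11 higher than 200 nM. Limma tested 42 of the 51. With TPM in place of CPM the cutoffs gave 134 IDs, 28 of them shared; the cause was not tested. With 1 library left out, the cutoffs gave 44 to 70 IDs, and 24 to 27 members were higher and 12 to 14 lower than DMSO, 0 to 3 higher and 29 to 30 lower than 25 nM (3 higher without library 3 at 200 nM, otherwise 0 to 2), and 12 to 18 higher and 18 to 20 lower than 200 nM. A pseudocount of 1 CPM gave 38 IDs with 26 of the 51 members, and 0.1 CPM gave 69 with 42.

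With a replicate block, 26 members were higher and 13 lower than DMSO at 500 nM. Pairing was checked on deviations from group means: for libraries with the same number r was -0.0535 to 0.107 over 18 pairs, which gave no ground for treating them as paired. The fit without library 3 at 200 nM and TMM-scaled cutoffs with a library left out were chosen after seeing the data; the latter gave 48 to 74 IDs. Of the 51 members, 20 had under 5 CPM at 25 nM, and 13 of these were called against DMSO at 500 nM.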
